A study of Mus musculus with 12 samples.

Results

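The genes described here encode the subunits of voltage-gated calcium channels in the heart. They were chosen by symbol and comprise the L-type pore genes Cacna1c, Cacna1d and Cacna1s, the P/Q-type pore gene Cacna1a, the T-type pore genes Cacna1g and Cacna1h, the beta subunit genes Cacnb1, Cacnb2 and Cacnb3, and the alpha-2-delta subunit gene Cacna2d1. They are 10 of the 24390 gene symbols in the deposited table, and all 10 passed the filter on low values. The choice was made with earlier results of these data known. The tissue was cardiac ventricle of C57BL/6 mice aged 8 weeks, and total RNA was sequenced in 12 libraries, 3 per group. WT_saline was wild-type with saline, WT_AAV was wild-type with the AAV9 vector named TRISPR Mef2d in the labels, TG_saline was Myh6-dCas9VPR transgenic with saline, and TG_AAV was Myh6-dCas9VPR transgenic with that vector. The Myh6 promoter drives expression in heart muscle cells, and dCas9VPR is a Cas9 without nuclease activity joined to activator domains that raises transcription where guide RNAs direct it. The question was what activation of the endogenous Mef2d gene, a transcription factor of muscle, does in the heart after birth. Only TG_AAV held both components, and no allele or agent was common to all groups. The labels do not state that the libraries of a group came from separate animals, so p-values measure the spread between these libraries, which may be technical in part.

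A voltage-gated calcium channel opens when the cell membrane depolarizes. Its pore is the alpha-1 subunit, a beta subunit inside the cell brings the pore to the membrane and tunes its gating, and an alpha-2-delta subunit outside the cell raises its surface level. In ventricular muscle the L-type channel built on Cacna1c lets in the calcium that triggers release from the sarcoplasmic reticulum through Ryr2, while in skeletal muscle Cacna1s and Cacnb1 are coupled directly to Ryr1. Cacna1d and the T-type channels are known from pacemaker cells of the sinus node and from atria, and Cacna1a is known from nerve terminals.

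The sequence before the start site is shown for 3 of the members that moved, namely the skeletal muscle pore gene Cacna1s and the beta gene Cacnb1, which rose in TG_AAV, and the main ventricular pore gene Cacna1c, which fell. Each is the 250 bases upstream of the first start site that RefSeq gives for the gene on GRCm38.p6, written 5′ to 3′ on the strand of the gene. Capitals mark matches on either strand to CANNTG, the E-box core that helix-loop-helix factors of muscle bind, and to CATTCC, the MCAT element that TEAD factors bind.
Cacna1s, chr1:136052561-136052810, plus strand: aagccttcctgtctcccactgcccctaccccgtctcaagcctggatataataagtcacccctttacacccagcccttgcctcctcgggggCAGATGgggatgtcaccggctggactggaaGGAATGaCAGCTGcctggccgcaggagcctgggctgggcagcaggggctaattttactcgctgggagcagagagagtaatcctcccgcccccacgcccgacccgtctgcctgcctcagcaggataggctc
Cacnb1, chr11:98022628-98022877, minus strand: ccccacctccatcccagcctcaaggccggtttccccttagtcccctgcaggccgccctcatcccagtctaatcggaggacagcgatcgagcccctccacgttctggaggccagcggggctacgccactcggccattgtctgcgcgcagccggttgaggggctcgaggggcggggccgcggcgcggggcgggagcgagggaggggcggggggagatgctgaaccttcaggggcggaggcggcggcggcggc
Cacna1c, chr6:119196410-119196659, minus strand: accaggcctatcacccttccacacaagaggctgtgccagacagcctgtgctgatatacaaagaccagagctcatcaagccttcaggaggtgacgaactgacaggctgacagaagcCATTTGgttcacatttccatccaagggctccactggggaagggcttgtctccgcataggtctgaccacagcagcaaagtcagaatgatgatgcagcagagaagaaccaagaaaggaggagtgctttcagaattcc
In the Cacna1s sequence, CATTCC appears as its complement GGAATG beginning 130 bases before the start, between E-boxes that begin 160 and 123 bases before it, and none of these matches overlap. The Cacna1c sequence holds 1 E-box, 135 bases before the start, and the Cacnb1 sequence shown holds neither motif. An E-box lies 27 bases before the second Cacnb1 start site in RefSeq, and others lie 233 and 217 bases before Cacna1c start sites 2 and 3. Which start site was in use in these hearts was not tested.

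Windows from 250 bases before to 50 bases after the start were searched on both strands for 13 start sites of 7 members, since the promoter table held Cacna1c, Cacna1d, Cacna1s, Cacnb1, Cacnb2, Cacnb3 and Cacna2d1. CATTCC was found in 1 of the 13 windows, that of Cacna1s, and in 14.7% of all 32851 windows of the table. CANNTG was found in 9 of the 13 windows and in 72.3% of all windows. The MEF2 box, to which Mef2d and its relatives bind, was found in 0 of the 13 windows and in 3.19% of all windows. The CArG box, the site of serum response factor, was found in 0 of the 13 and in 1.63% of all. The MEF2 and CArG boxes both have an A- and T-rich core but differ in their outer letters. A match is a description of letters, and a window without one says nothing about binding elsewhere.

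Depth ran from 10233281 to 14911986 recovered reads per library. Mef2d, the gene that the vector names, had a normalized count of 1989, 2231 and 1897 in TG_AAV and of 975 ± 136 (SD, n = 9) in the controls, a ratio of 2.09. The control means were 1018 in WT_saline, 1069 in WT_AAV and 839 in TG_saline, and the ratio to TG_saline was 2.43. A two-sided exact permutation test of the means, which treated the controls as 1 set, gave p = 0.00455, the lowest possible for 3 libraries against 9. The tissue was bulk, so fewer cells of a type and less RNA per cell cannot be told apart. WT_saline 3 (21.3) and WT_AAV 3 (29.8) were taken as standing apart from the other wild-type libraries (-26.2 to -3.15) on the first principal component, by its sign alone. That component held 31.8% of the variance among the 6 wild-type libraries. The atrial gene Myl7 was above 1000 in WT_AAV 1, WT_AAV 3 and TG_AAV 1. It was at 728 in TG_saline 1 and 258 in TG_saline 3, and at most 19.1 in the rest, with all of WT_saline at 8.88 or less. The alternative without the libraries above 1000 kept TG_saline 1 and TG_saline 3. The skeletal muscle gene Myh2 was above 100 in 6 libraries that include at least 1 of every group. Of 6 fibroblast markers 3 were higher in TG_AAV than in the controls by limma, and 0 passed against WT_AAV alone. The summed level of the 6 was 14032 to 15288 in TG_AAV and 9509 to 13178 in the controls. Much of that sum was Dcn, at 7890 to 8236 in TG_AAV and 4677 to 7579 in the controls, while Col1a1 did not pass (log2 -0.06). The part of these markers in the results on the channel genes was not tested. Of 5 endothelial markers, Cdh5 was lower by limma (log2 -0.43, adjusted p = 0.00198) and 3 had an unadjusted p under 0.05, and their summed level was 6893 to 8558 in TG_AAV and 8298 to 10334 in the controls. Their part was not tested either. Of 7 smooth muscle and pericyte markers 0 passed by limma, and none had an unadjusted p under 0.05.

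In hearts with both components, 8 of the 10 channel genes differed from the mean of the 3 control groups at an adjusted p under 0.05 by limma, 5 higher and 3 lower. Over all 13030 genes tested 21.7% passed, 12.0% higher and 9.69% lower. The genes that rose were Cacna1a, Cacna1d, Cacnb1, Cacnb3 and Cacna1s, and those that fell were Cacna1c, Cacna1g and Cacna1h. For Cacna1a, Cacna1d, Cacnb1, Cacna1c and Cacna1g the 3 TG_AAV values lay wholly outside the 9 control values, which held for 5 of the 10 and for 17.5% of all genes. The median log2 change was 0.27 over the 10 and -0.0031 over all genes tested. Since the 10 were chosen with earlier results of these data known, these counts and medians describe them and are not a test of the set.

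**Figure D1:**
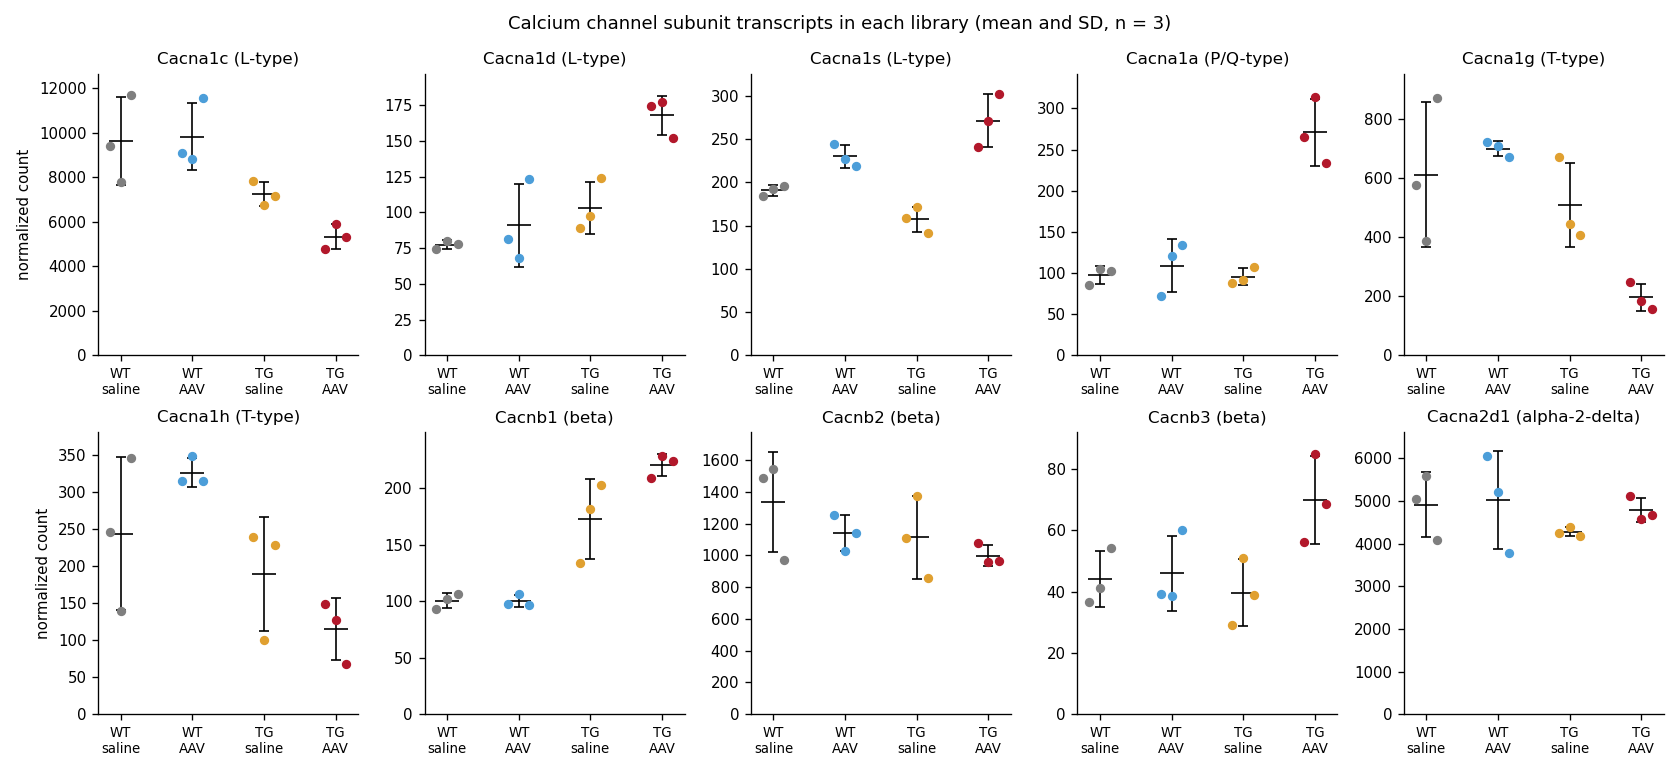
Normalized read count (vertical axis, linear from 0) of each channel gene in every library, by group, with a panel per gene; points are libraries, and the dash and bars are the mean and SD of 3 libraries. The TG_AAV points of Cacna1a, from 234 to 314, lie above all control points, whose highest is 134, and those of Cacna1g, from 158 to 247, lie below all control points, whose lowest is 385.

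Of the L-type pore genes, Cacna1c, which carries the main calcium current of ventricular muscle, had normalized counts of 9395, 7792 and 11708 in WT_saline and 9107, 8807 and 11564 in WT_AAV. It had 7848, 6772 and 7146 in TG_saline and 4770, 5909 and 5308 in TG_AAV. All TG_AAV values lay below all control values, and the highest values were those of the wild-type libraries that stood apart. TG_AAV was at 0.598 of the control mean, and the log2 change was -0.72 ± 0.12 (SE; limma, adjusted p = 0.000959). Without WT_saline 3 and WT_AAV 3 it was -0.63 ± 0.08 (limma, adjusted p = 0.000202). The summed level of the 6 ventricular muscle markers was 538319 to 585587 in TG_AAV and 600643 to 728861 in the controls, with 2 of the 6 lower and none higher by limma, and their part in the result was not tested.

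Cacna1s, the pore and voltage sensor of skeletal muscle, had 184, 192 and 196 normalized counts in WT_saline and 245, 227 and 219 in WT_AAV. It had 159, 171 and 142 in TG_saline and 241, 271 and 302 in TG_AAV. The lowest TG_AAV library was within the WT_AAV range, and the other two exceeded every control. The log2 change against the controls was 0.51 ± 0.09 (SE; limma, adjusted p = 0.00164). The summed level of 9 skeletal muscle markers was 34.2 to 1075 in TG_AAV and 25.2 to 1362 in the controls, and 0 of the 3 that could be tested passed by limma. With a term for libraries above 100 in Myh2, the change of Cacna1s was 0.50 ± 0.10 (limma, adjusted p = 0.00353), and the part of the other skeletal muscle markers was not tested.

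Cacna1d, an L-type pore that opens at lower voltage and serves pacemaking, had 74.4, 80.2 and 78.1 normalized counts in WT_saline and 81.6, 68.0 and 123 in WT_AAV. It had 88.9, 97.2 and 124 in TG_saline and 174, 177 and 152 in TG_AAV. Every TG_AAV library was above every control, and the log2 change was 0.91 ± 0.16 (SE; limma, adjusted p = 0.00139). Of the 7 atrial markers, 6 were tested, 0 were higher and Kcnj3 was lower by limma, and their summed level was 2532 to 7060 in TG_AAV and 2304 to 8660 in the controls. Their part in the result was not tested.

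Cacna1a, the P/Q-type pore known from synaptic terminals, showed the largest rise of the 10. It had 85.5, 105 and 103 normalized counts in WT_saline and 72.4, 121 and 134 in WT_AAV. It had 88.0, 91.7 and 108 in TG_saline and 265, 314 and 234 in TG_AAV. The groups did not overlap, TG_AAV was at 2.68 times the control mean, and the log2 change was 1.43 ± 0.17 (SE; limma, adjusted p = 7.51e-05). Of 9 neuron and Schwann cell markers 5 were tested, of which Uchl1 was higher and Dbh lower by limma, while Snap25, Syt1 and Th were at or below 1.46 in every library and Stmn2 was at 29.96 to 65.1 in the 12 libraries. The summed level of the 9 was 357 to 370 in TG_AAV and 206 to 334 in the controls, and their part in the result was not tested.

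Both T-type pores, which open at low voltage and are known from conduction cells and the fetal ventricle, fell. Cacna1g had 576, 385 and 870 normalized counts in WT_saline, 720, 706 and 670 in WT_AAV, 670, 443 and 408 in TG_saline, and 247, 184 and 158 in TG_AAV. Each TG_AAV value was below every control, at 0.324 of the control mean, and the log2 change was -1.60 ± 0.21 (SE; limma, adjusted p = 0.000195). Cacna1h had 245, 140 and 346 in WT_saline, 315, 348 and 314 in WT_AAV, 239, 101 and 228 in TG_saline, and 149, 128 and 67.6 in TG_AAV. Its groups overlapped, since TG_saline 2 and WT_saline 2 were below TG_AAV 1, and its log2 change was -1.11 ± 0.30 (limma, adjusted p = 0.0192). Without TG_AAV 3, its lowest library, the change of Cacna1h was -0.77 and no longer passed (limma, adjusted p = 0.140). Of 7 sinus node and conduction markers 6 were tested, of which the pacemaker channel gene Hcn4 was lower by limma (log2 -0.66, adjusted p = 0.0351) and none was higher. Hcn4 averaged 117 in TG_AAV, 121 in TG_saline, 209 in WT_saline and 267 in WT_AAV. Against TG_saline alone it did not pass (log2 0.0019; limma, adjusted p = 0.998). The summed level of the 7 markers was 473 to 729 in TG_AAV and 549 to 1318 in the controls, Isl1 was at most 1.15 in any library, and their part in the fall of the T-type genes was not tested.

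Of the beta subunits, Cacnb1, the form that pairs with Cacna1s in skeletal muscle, had 93.3, 102 and 106 normalized counts in WT_saline and 97.7, 107 and 96.4 in WT_AAV. It had 133, 181 and 202 in TG_saline and 209, 228 and 224 in TG_AAV. All TG_AAV libraries were above all controls, but the TG_saline libraries were also above all 6 wild-type libraries. The log2 change against the controls was 0.88 ± 0.12 (SE; limma, adjusted p = 0.000212).

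Cacnb2, the main beta subunit of heart muscle, had 1488, 1546 and 974 normalized counts in WT_saline, 1256, 1031 and 1140 in WT_AAV, 1108, 1378 and 857 in TG_saline, and 1076, 959.5 and 963 in TG_AAV. The groups overlapped, and the log2 change of -0.24 ± 0.15 (SE; limma, adjusted p = 0.273) had a 95% interval from -0.55 to 0.08. Cacnb3, a beta subunit known from brain and smooth muscle, had 36.6, 41.2 and 54.3 in WT_saline, 39.1, 38.6 and 60.0 in WT_AAV, 29.0, 50.8 and 38.9 in TG_saline, and 56.2, 84.7 and 68.4 in TG_AAV. Its lowest TG_AAV value was below the highest control, and the log2 change was 0.69 ± 0.21 (limma, adjusted p = 0.0304). The call for Cacnb3 rested on 248 TG_AAV reads and was lost without TG_AAV 2 (limma, adjusted p = 0.167) or TG_AAV 3 (limma, adjusted p = 0.0989). Cacnb3 also did not pass when genes with low counts were kept (limma, adjusted p = 0.0506).

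Cacna2d1, the alpha-2-delta subunit of heart and skeletal muscle channels, had 5053, 5587 and 4087 normalized counts in WT_saline and 6062, 5210 and 3776 in WT_AAV. It had 4259, 4383 and 4173 in TG_saline and 5106, 4565 and 4678 in TG_AAV. The TG_AAV values fell within the control range. The log2 change was 0.03 ± 0.12 (SE; limma, adjusted p = 0.890), with a 95% interval from -0.23 to 0.29, and its sign depended on which libraries were kept.

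TG_saline and WT_AAV each differ from TG_AAV by a single component and WT_saline by both, and the comparisons with TG_AAV share its 3 libraries. Against TG_saline, which differs by the vector, 4 of the 10 passed by limma, beside 6.09% of all genes, 3.69% higher and 2.40% lower. Cacna1a (log2 1.49 ± 0.20), Cacna1s (0.78 ± 0.11) and Cacna1d (0.71 ± 0.19) were higher and Cacna1g (-1.36 ± 0.26) was lower, with adjusted p of 0.00101, 0.00128, 0.0482 and 0.00725. The Cacna1d call against TG_saline was lost in 12 of its alternatives, among them the omission of any TG_AAV library (limma, adjusted p = 0.0881 to 0.159). Cacna1c was at -0.45 (limma, adjusted p = 0.0912), Cacnb1 at 0.38 (adjusted p = 0.147) and Cacnb3 at 0.82 (adjusted p = 0.0779), and none of these passed.

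Against WT_AAV, which differs by the transgene, 6 of the 10 passed by limma, beside 18.8% of all genes, 10.6% higher and 8.17% lower. Cacna1a (log2 1.34), Cacnb1 (1.13) and Cacna1d (0.92) were higher, and Cacna1g (-1.85), Cacna1h (-1.57) and Cacna1c (-0.88) were lower. Cacna1s did not pass there, at 0.23 (limma, adjusted p = 0.156). The calls for Cacna1c (limma, adjusted p = 0.0926) and Cacna1h (adjusted p = 0.0932) in that comparison were lost without the 3 libraries above 1000 in Myl7, and that for Cacna1h also without TG_AAV 3 (adjusted p = 0.0523). Against WT_saline 6 of the 10 passed by limma, beside 18.7% of all genes, 10.3% higher and 8.38% lower. Cacna1a (1.45), Cacnb1 (1.13), Cacna1d (1.10) and Cacna1s (0.50) were higher, and Cacna1g (-1.58) and Cacna1c (-0.84) were lower.

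The vector without the activator moved 0 of the 10 by limma, beside 0.00% of all genes, and 1 of the 10 had an unadjusted p under 0.05. That gene was Cacna1s, at log2 0.27 between WT_AAV and WT_saline (limma, adjusted p = 0.992), with all WT_AAV values above all WT_saline values, a separation that 6.06% of all genes showed. The count was also 0 with edgeR and with DESeq2.

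The activator without the vector moved 0 of the 10 by limma, beside 0.0998% of all genes, and 3 of the 10 had an unadjusted p under 0.05. Cacnb1 was closest, 172 ± 35.4 (SD, n = 3) in TG_saline against 101 ± 6.65 (SD, n = 3) in WT_saline, without overlap, which held for 16.6% of all genes. Its log2 difference was 0.75 ± 0.14 (SE; limma, adjusted p = 0.0538). Both edgeR (adjusted p = 0.0490) and DESeq2 (adjusted p = 0.00258) counted 1 of the 10, namely Cacnb1. Cacna1c (log2 -0.39, limma, adjusted p = 0.310) and Cacna1s (-0.28, adjusted p = 0.337) were the other two under an unadjusted 0.05.

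Whether the vector acted differently in the 2 genotypes was tested as an interaction (TG_AAV minus TG_saline, less WT_AAV minus WT_saline), in which 1 of the 10 passed by limma, beside 0.852% of all genes. That gene was Cacna1a, with a difference of effects of log2 1.37 ± 0.29 (SE; limma, adjusted p = 0.0438), and the call was lost in 15 of its 25 alternatives. Among these were edgeR and the omission of any 1 of the TG_AAV or TG_saline libraries. Over all 25, by limma, edgeR or DESeq2, the adjusted p ran from 0.00183 to 0.157. Cacna1g was at -1.63 ± 0.36 (limma, adjusted p = 0.0588). For Cacna1s (0.52, adjusted p = 0.182), Cacna1h (-1.20, adjusted p = 0.388), Cacna1c (-0.49, adjusted p = 0.376), Cacna1d (0.52, adjusted p = 0.483) and Cacnb1 (0.38, adjusted p = 0.492) no difference of effects was shown by limma.

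**Figure D2:**
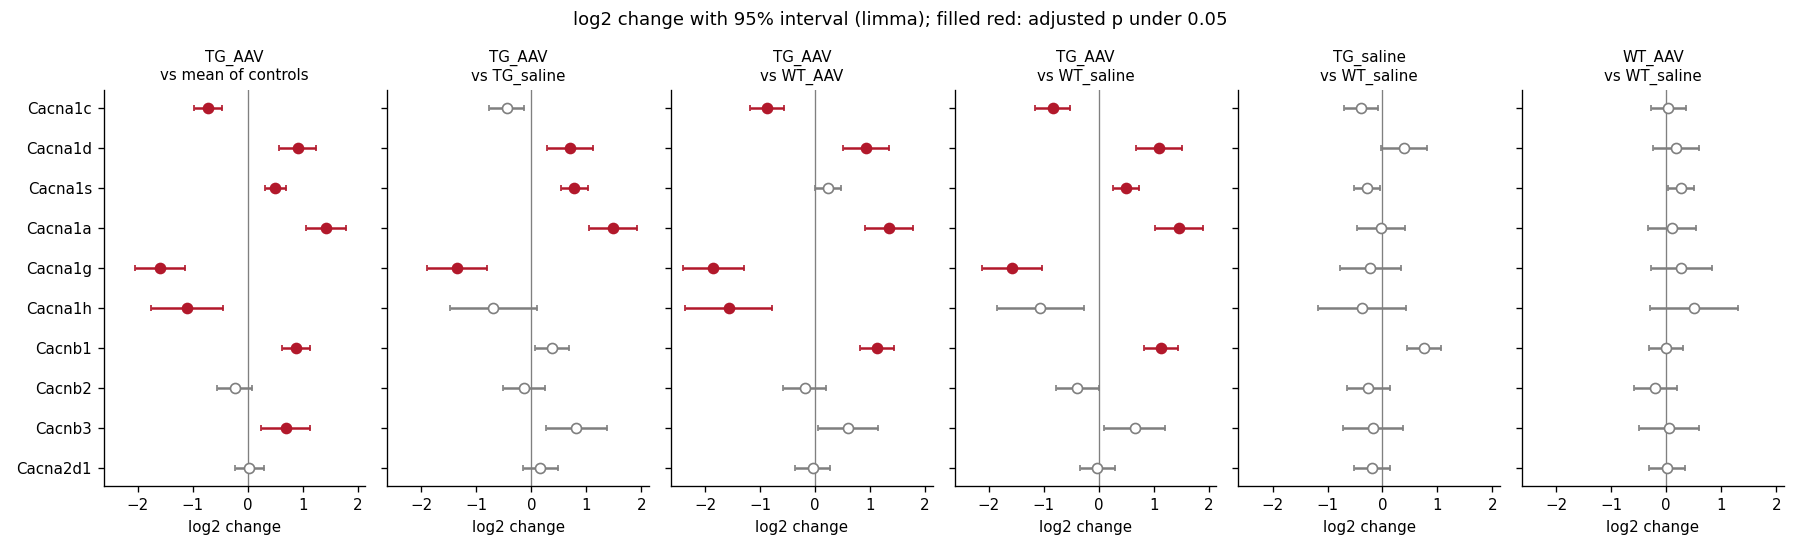
Log2 change of each channel gene (horizontal axis, with 95% interval) in 6 comparisons, a panel per comparison; filled red points passed an adjusted p of 0.05 in limma over all 13030 genes and open grey points did not. Cacna1a, Cacna1d and Cacna1g passed in all 4 comparisons that involve TG_AAV, and no gene passed in the panels for the activator alone or the vector alone.

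To set the levels of different genes side by side, normalized counts were divided by the length of the longest transcript in GENCODE M21. In WT_saline the order was Cacna1c (732 ± 150 per kb, SD, n = 3), Cacna2d1 (660 ± 102), Cacnb2 (266 ± 62.6), Cacna1g (72.8 ± 29.2), then Cacna1s (30.6 ± 0.986), Cacna1h (29.6 ± 12.5) and Cacnb1 (29.6 ± 1.96). Cacnb3 (16.1 ± 3.34), Cacna1a (12.4 ± 1.37) and Cacna1d (8.03 ± 0.302) were lowest. The library ranges of Cacna1c and Cacna2d1 overlapped, as did those of Cacna1s, Cacna1h and Cacnb1, while every other pair of neighbours in that order was separate.

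In TG_AAV the order differed. Cacna2d1 (643 ± 38.4 per kb, SD, n = 3) stood above Cacna1c (405 ± 43.3), with no overlap between the libraries, and Cacnb2 was at 199 ± 13.2. Cacnb1 (64.96 ± 2.94), Cacna1s (43.45 ± 4.87) and Cacna1a (34.2 ± 5.09) followed, all above Cacnb3 (25.5 ± 5.24) and Cacna1g (23.4 ± 5.44), although Cacna1a and Cacna1s overlapped, as did Cacnb3 with Cacna1a and with Cacna1g. Cacna1d (17.4 ± 1.44) and Cacna1h (13.9 ± 5.11) were lowest and overlapped. With the union of all exons as the length, Cacna2d1 was again above Cacna1c in TG_AAV, at 385 against 252 per kb, and Cacna1g was above Cacnb3.

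The makeup of each subunit class was described by shares of the summed level per kb, with the longest transcript as the length and with no test. Of the L-type pores, counted with the retinal gene Cacna1f, Cacna1c held 94.9% ± 0.982 in WT_saline, 94.1% in WT_AAV, 93.9% in TG_saline and 86.9% ± 0.889 in TG_AAV (SD, n = 3). Cacna1s went from 4.06% in WT_saline to 9.35% ± 0.937 in TG_AAV and Cacna1d from 1.07% to 3.76% ± 0.490. No TG_AAV library overlapped a control library in these 3 shares. The shares are parts of a common total, so they are not independent, and a fall of Cacna1c by itself would raise the others. The counts of Cacna1s overlapped those of WT_AAV. No such share exists over all genes to set beside this separation. The summed L-type level was 770 ± 149.9 per kb in WT_saline, 793 ± 116 in WT_AAV, 587 ± 40.2 in TG_saline and 466 ± 45.8 in TG_AAV.

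Among all 10 alpha-1 genes of the table, Cacna1a held 1.44% in WT_saline and 6.33% in TG_AAV, and Cacna1g 7.99% and 4.39%. Of the beta subunits, Cacnb2 held 82.8%, 80.9%, 74.7% and 67.3% in WT_saline, WT_AAV, TG_saline and TG_AAV, and Cacnb1 held 9.58%, 10.6%, 17.6% and 22.0%. The Cacnb1 share overlapped between TG_saline and TG_AAV. The summed beta level was 318 ± 56.8 per kb in WT_saline and 295 ± 8.72 in TG_AAV (SD, n = 3), so the groups overlapped in the total. These beta shares and sums depend on the length used. With the union of all exons, Cacnb2 was at 101 per kb in WT_saline and 75.6 in TG_AAV, and Cacnb1 at 22.2 and 48.7. Shares and sums on that length were not computed. Cacna2d1 held 98.8% of the alpha-2-delta level in WT_saline and 98.5% in TG_AAV.

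**Figure D3:**
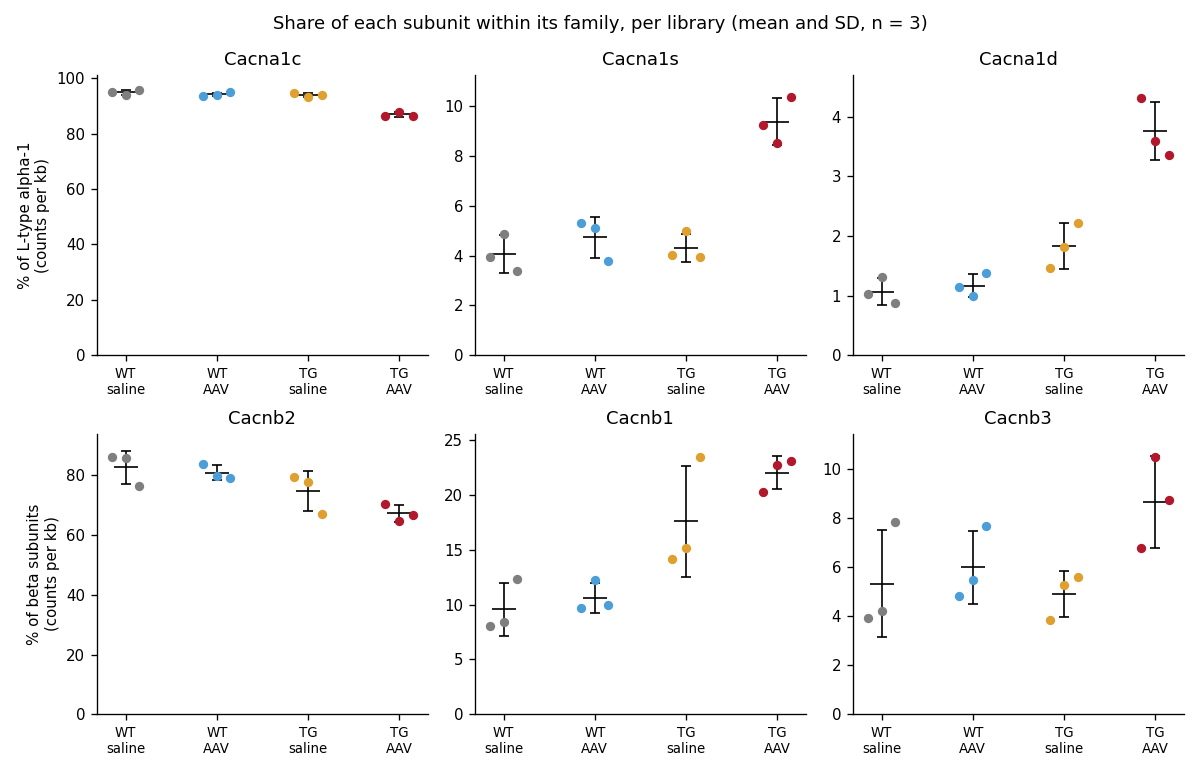
Share of each subunit in the summed level per kb of its class, in percent (vertical axis from 0, its own range in each panel), for 3 L-type pore genes in the upper row and 3 beta genes in the lower row; points are libraries, and the dash and bars are the mean and SD of 3. The Cacna1s share averages 9.35% in TG_AAV and 4.06% in WT_saline, and the Cacnb1 share of TG_saline, with a mean of 17.6%, lies between the wild-type groups and TG_AAV with 1 library as high as TG_AAV.

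Of 16 other channel subunit genes 4 reached the mean of 10 that the test required, and 1 of the 4 rose while none fell against the controls (limma, median log2 -0.14), beside 21.7% of all genes called. That gene was Cacng6, a gamma subunit of skeletal and heart muscle, with 11.1, 33.2 and 9.77 normalized counts in WT_saline, 19.5, 10.1 and 9.64 in WT_AAV, 42.5, 47.5 and 16.3 in TG_saline, and 70.0, 59.8 and 50.1 in TG_AAV. Every TG_AAV value was above every control, and the log2 change was 1.64 ± 0.38 (SE; limma, adjusted p = 0.00876). It was lost without TG_AAV 1 (limma, adjusted p = 0.0524) and without the libraries above 1000 in Myl7 (adjusted p = 0.0605). Against TG_saline alone Cacng6 was at 0.87 (limma, adjusted p = 0.325) and did not pass. Cacnb4, Cacna2d2 and Cacng7 did not pass, at log2 -0.29, -0.13 and -0.16. Among the 12 that were not tested, the skeletal muscle gamma subunit Cacng1 averaged 0.696 normalized counts over the 12 libraries and the N-type pore Cacna1b 9.77.

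Of 23 genes for regulators of the channels 20 were tested, and 3 rose and 3 fell by limma (median log2 0.01), beside 21.7% of all genes called, 12.0% higher and 9.69% lower. Camk2b, a calcium and calmodulin dependent kinase subunit, was at 198 ± 50.1 (SD, n = 9) in the controls and 740 ± 54.5 (SD, n = 3) in TG_AAV, with a log2 change of 1.94 (limma, adjusted p = 3.03e-05). Camk2a, its relative known from neurons, went from 673 ± 66.7 to 377 ± 21.6, with -0.83 (limma, adjusted p = 8.89e-06). Calm3, which encodes the calcium sensor calmodulin, rose by 0.57 (limma, adjusted p = 0.000410), and Camk2g by 0.30 (adjusted p = 0.0267), a call lost without any 1 of the TG_AAV libraries. Adrb1, the beta-1 adrenergic receptor whose signal enhances the L-type current, fell by 0.50 (limma, adjusted p = 0.00199). Ahnak, a large protein that binds the beta subunit, was at -0.28 (limma, adjusted p = 0.0441), and its call was lost in 13 of 25 alternatives. The small GTPase genes Rrad, Rem1 and Gem, which restrain the channels, did not pass, at 0.33, 0.04 and -0.07. Compared with TG_saline alone, Camk2b, Camk2a and Adrb1 passed by limma. Calm3 (0.30; limma, adjusted p = 0.106), Camk2g (0.25, adjusted p = 0.193) and Ahnak (-0.17, adjusted p = 0.436) did not pass in that comparison.

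Of 17 genes for partners of the channels at the triad of skeletal muscle and the dyad of heart muscle 15 were tested, and 5 rose and 3 fell by limma (median log2 -0.01), beside 21.7% of all genes called, 12.0% higher and 9.69% lower. Ryr1, the release channel that Cacna1s opens in skeletal muscle, had 4.29 to 27.1 normalized counts in the controls and 1995, 1593 and 1442 in TG_AAV, with a log2 change of 6.99 ± 0.33 (SE; limma, adjusted p = 3.78e-08). Ryr2, the release channel of heart muscle, had 55955 to 86405 in the controls and 43016, 44139 and 42191 in TG_AAV, with -0.76 ± 0.09 (limma, adjusted p = 9.50e-05). The controls of Ryr2 were not alike, with means of 77842 in WT_saline, 82623 in WT_AAV and 60193 in TG_saline. Against TG_saline alone its log2 change was -0.48. Ryr1 and Ryr2 thus moved in opposite directions, without overlap between TG_AAV and the controls. Ryr3, a further release channel of the family, had 40.8, 59.8 and 34.2 in TG_AAV, within the control range of 15.4 to 97.5, and did not pass (log2 -0.20; limma, adjusted p = 0.675). Sypl2, a protein of the skeletal triad, rose by 3.81 (limma, adjusted p = 5.72e-05) and Casq1, the calcium buffer of skeletal sarcoplasmic reticulum, by 2.20 (adjusted p = 2.26e-05). Hrc, a calcium-binding protein of the sarcoplasmic reticulum, fell by 0.81 (limma, adjusted p = 1.88e-05) and Jph2, which ties the surface membrane to the reticulum in heart, by 0.47 (adjusted p = 0.00112). In WT_saline, WT_AAV, TG_saline and TG_AAV, Hrc averaged 11190, 11912, 8878 and 6035, and Jph2 8217, 8648, 6616 and 5600. Bin1, which shapes the tubules of the surface membrane, at 0.50 and Jph1, the junctophilin of skeletal muscle, at 0.33 passed in limma with adjusted p of 0.0248 and 0.0301, and both calls were lost without any 1 of the TG_AAV libraries. Compared with TG_saline alone, Ryr1, Sypl2, Casq1, Ryr2 and Hrc passed by limma. Jph2 (-0.24; limma, adjusted p = 0.181), Bin1 (0.56, adjusted p = 0.0836) and Jph1 (0.31, adjusted p = 0.156) did not pass in that comparison.

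**Figure D4:**
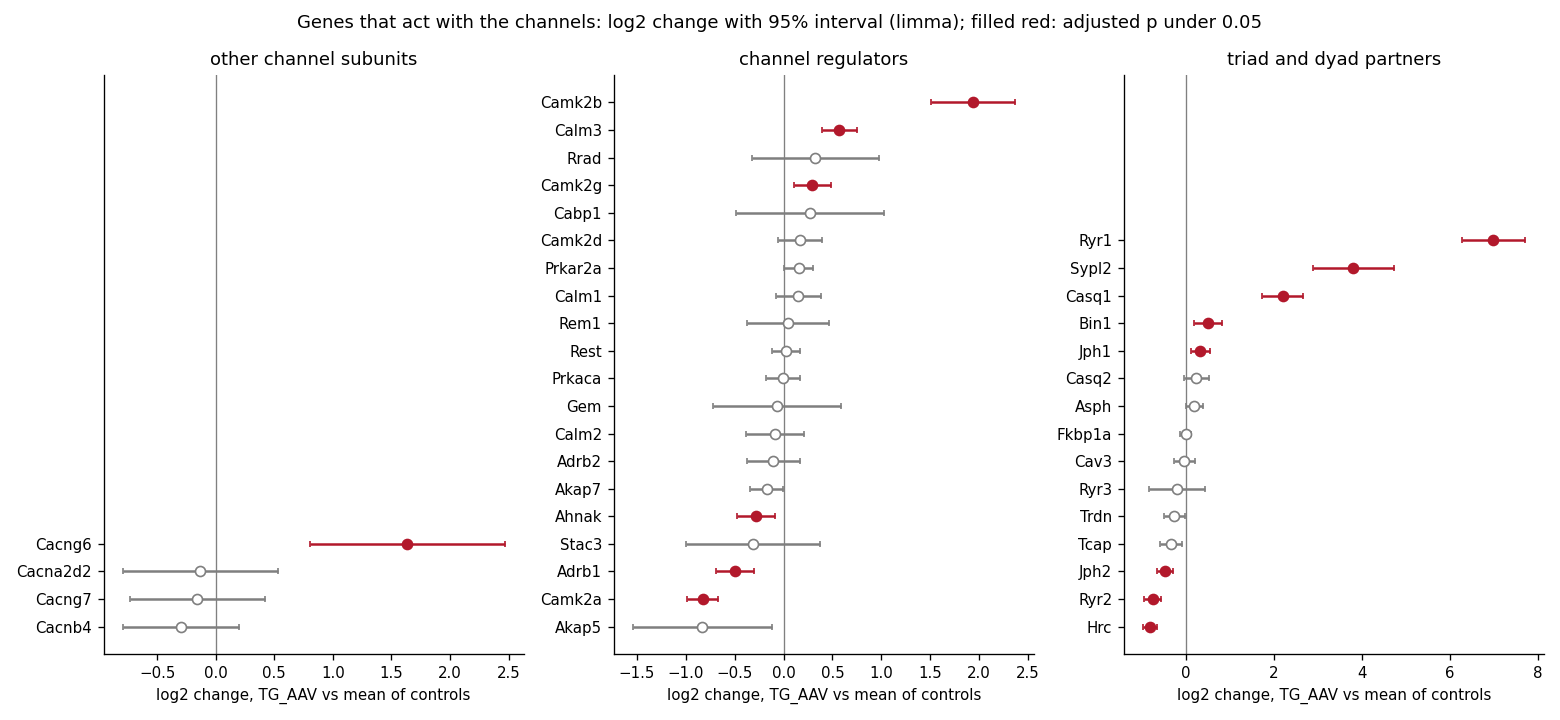
Log2 change of TG_AAV against the mean of the controls (horizontal axis, its own range in each panel, with 95% interval) for the tested genes of 3 lists: other channel subunits, channel regulators, and triad and dyad partners; filled red points passed an adjusted p of 0.05 in limma. Ryr1 lies farthest to the right at 6.99, and Hrc, Ryr2 and Jph2 lie to the left of 0.

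For the members whose level changed, the genes of most similar pattern were named by the root mean square log2 difference over the 12 libraries after centring, among 13008 other genes. For Cacna1c these were Zfp612 (0.0974), Aldh9a1 (0.109) and Scarf1 (0.113). For Cacna1s they were Bag3 (0.124), Zyx (0.143) and B3galnt2 (0.157), and for Cacna1d S100a13 (0.152), Src (0.162) and Ddr1 (0.166). Those of Cacnb1 were Tmem8 (0.151), Abca5 (0.159) and Prmt2 (0.16), and those of Cacnb3 Unc13b (0.196), Tead2 (0.2) and Prickle2 (0.212). The nearest genes were farther away for Cacna1g, with Whrn (0.222), Ybx2 (0.247) and Emilin2 (0.26), and for Cacna1a, with Grrp1 (0.243) and 5031414D18Rik (0.255). Cacna1h had the largest distances, to Pcdhga4 (0.357), Mfsd2b (0.359) and Slc27a1 (0.36). The distances were not scaled to the spread of the member, so they do not rank the members by likeness of pattern. That spread (SD of log2 over the 12 libraries) was 0.815 for Cacna1g, 0.769 for Cacna1h and 0.691 for Cacna1a. For the other members it ran from 0.321 (Cacna1s) to 0.531 (Cacnb1).

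Some reads could come from other genes, since the strand setting is not given in the sources used here. In the GENCODE M21 annotation 20% of the exon bases of Cacna1s overlap the antisense gene Gm37759, and 4.67% of those of Cacna1d overlap Chdh on the other strand, whose mean normalized count was 4.08. For Cacnb2 there were 3 such overlaps, of 4.67%, 1.81% and 0.839%, for Cacna1a the overlap was 3.81%, for Cacnb1 1.77% and for Cacna1h 1.62%. Stretches of 50 bases shared with another gene were absent from 7 of the 10 members and made up 0.182% or less of Cacna1g, Cacna1h and Cacnb2.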

How the data were processed

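The deposited table gives a signal unit, normalized counts per gene, in which the authors divided the reads of each library by its size factor. Per the submitters' processing notes, Bowtie2 2.0, DESeq2 and build mm9 were used. The counter, annotation, strand setting and filters: not given in the sources used here. Whole reads were recovered from the steps between values (100% within 0.01 of a whole read). Groups came from the titles. A trended limma 3.58.1 fit (R 4.3.3) of log2(normalized count + 1), a scale that understates changes of low genes, held 4 group means over 12 libraries. It tested the 13030 genes with a mean of 10 or more, two-sided, with Benjamini-Hochberg adjustment and a threshold of 0.05, and was tested on simulated data.

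Alternatives changed the pseudocount, filter, scaling, variance estimate and libraries, added a replicate term, or ran edgeR 4.0.16 and DESeq2 1.42.0 on the recovered reads, and 3 were added after seeing the data. All members were named, with the genes of the lists that passed against the controls, some others given as levels, and for each member that passed the 3 genes nearest in pattern, of which 1 is not reported here. The members and lists were chosen with earlier results of these data known. Promoters are from RefSeq, and lengths from GENCODE M21 on GRCm38, another build than mm9.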

Additional observations from a re-analysis of the deposited data

Results flagged for a closer look

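The effect of the vector on Cacna1a passed the threshold in a test of the difference between genotypes. TG_AAV minus TG_saline exceeded WT_AAV minus WT_saline by log2 1.37 ± 0.29 (SE; limma, adjusted p = 0.0438, n = 3 per group). Cacna1a was at 271 ± 40.3 normalized counts in TG_AAV, 95.7 ± 10.4 in TG_saline, 109 ± 32.4 in WT_AAV and 98.0 ± 10.9 in WT_saline (SD, n = 3), and all 3 TG_AAV libraries were above all other libraries. The call was lost in 15 of 25 alternatives, among them edgeR and the omission of any 1 of the TG_AAV or TG_saline libraries. Over all 25, by limma, edgeR or DESeq2, the adjusted p ran from 0.00183 to 0.157.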

How the results depend on the processing

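Over 33 log2 changes of the members (all against the controls, and others with an adjusted p under 0.1 in limma) and 843 alternatives, 783 kept direction and side of the threshold, 34 no longer passed, 21 passed only in the alternative and 5 changed sign. Those 5 all concern Cacna2d1 against the controls, which never passed and ran from -0.0333 to 0.0805 with each library left out in turn. It was at -0.0116 without WT_saline 3, -0.0333 without WT_AAV 3, -0.0175 without TG_AAV 1, -0.0449 without the 3 libraries above 1000 in Myl7 and -0.0753 without the 2 wild-type libraries that stand apart.

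With each library left out in turn, the members that passed numbered 6 to 8 against the controls, 3 to 5 against TG_saline, 5 to 6 against WT_AAV, 6 to 7 against WT_saline, 0 to 0 for the vector alone, 0 to 1 for the activator alone and 0 to 1 for the interaction, and the Mef2d ratio ran from 1.99 to 2.16. For the activator alone, 1 member passed with robust variance moderation, with the replicate block, with edgeR and with DESeq2. For the interaction, 0 passed with no filter, upper-quartile scaling, edgeR, omission of the Myl7 libraries or a Myh2 term, and 2 passed with the replicate block, with DESeq2 or without the 2 wild-type libraries that stand apart. The causes were not tested.

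Over all genes, 2830 passed against the controls, and 1677, 1715 and 1614 without TG_AAV 1, 2 and 3, and 1708 without the Myl7 libraries, where fewer samples were fitted. Nothing in the labels says that a replicate number marks a shared animal, litter or day, and it is unresolved whether the numbers pair the libraries. Same-numbered libraries deviated together with r from -0.158 to 0.332, over 0.1 in 8 of 18 pairs (median 0.0874), differently numbered ones from -0.368 to 0.345 (8 of 36, median -0.062), and 9 of 12 libraries were closest to their own number. With the replicate block 3096 genes passed against the controls.

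Of 40 levels per kb, 30 moved by more than 1 SD when the exon union replaced the longest transcript. Of the 10 members, Cacnb3 had the fewest reads, 366 over the 9 control libraries.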
